A study of Homo sapiens with 9 samples.

Results

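The genes of heme synthesis, transport and breakdown were followed in MDA-MB-231 cells, an established line of triple-negative breast cancer. The 10 genes were found by their symbols among the 58735 genes counted in each library. Breakdown was covered by HMOX1, HMOX2, BLVRA and BLVRB, synthesis by ALAS1, UROD, CPOX and FECH, and transport by SLC48A1 and FLVCR1. Vehicle cells were treated with DMSO. Erastin-R cells had survived increased concentrations of erastin, which inhibits the cystine importer system xc-. RSL3-R cells had survived increased concentrations of RSL3, which inhibits the lipid peroxidase GPX4. Each group had 3 libraries, numbered as replicates 1 to 3, and all 10 genes passed the filter on low counts in each comparison. The sequenced cells were survivors and were not described as single clones. The schedule of their treatment was not used here. Selection of cells and a response of the cells to the drug therefore cannot be told apart. Whether the replicates came from separate cultures was not given, and the p-values therefore measure only the spread between these libraries.

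Heme is an iron-containing porphyrin. Its synthesis starts in the mitochondrion with ALAS1, continues in the cytosol through steps that include ALAD, UROS and UROD, and ends in the mitochondrion with CPOX, PPOX and FECH, the last of which inserts ferrous iron. The heme oxygenases HMOX1 and HMOX2 open the ring and release iron, carbon monoxide and biliverdin, and the biliverdin reductases reduce biliverdin to bilirubin. Ferroptosis is a form of cell death driven by iron-dependent lipid peroxidation, and HMOX1 is a well-known target of the transcription factor NRF2 and of its competitor BACH1.

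Total counts per library lay between 15405102 and 17273464. Levels are given as CPM, counts relative to the TMM library size, or, between genes, as RPKM, CPM per kilobase of exon. The exon length joins all annotated exons of a gene, so RPKM comparisons between genes depend on the annotation. Libraries of the same group correlated at 0.986 to 0.992 across genes and libraries of different groups at 0.959 to 0.972. Erastin-R replicate 1 stood apart from the other erastin-R libraries on the third principal component, which carried 6.71% of the variance, with a score of 35.7 against -14.4 and -13.0. Results that changed without it are given beside the values. The line's mesenchymal marker VIM was high at 20507 to 26549 counts and was not called in either comparison with vehicle. Its markers CD44 and EGFR were called in both. CD44 was lower in erastin-R and RSL3-R cells (-0.15 and -0.43 on the log2 scale, edgeR adjusted p = 0.0343 and 3.42e-05). EGFR was higher (0.26 and 0.78, adjusted p = 0.00455 and 5.07e-07). The hormone receptor genes ESR1 and PGR had at most 12 and 2 counts. Of the markers of other cell types, the hemoglobin genes HBB and HBA1 had 0 counts in all 9 libraries, which allows up to 3 counts in each. The leukocyte marker PTPRC had 3 to 11 counts outside RSL3-R cells and 19 to 24 in RSL3-R cells, and CD68 had at most 7. Of the fibroblast markers, PDGFRB had 173 to 191 counts in RSL3-R and 96 to 122 in the other libraries, and COL1A1 had 140 to 205 in RSL3-R and 111 to 163 in the others. PTPRC, CDH1, PDGFRB and COL1A1 were called higher in RSL3-R cells than in vehicle, by 1.67, 1.58, 0.69 and 0.39 on the log2 scale (edgeR adjusted p = 0.00818, 0.00130, 3.90e-04 and 0.0469), and were not called in erastin-R cells. The epithelial gene CDH1 had 53 to 59 counts in RSL3-R and 6 to 27 in the other libraries, and EPCAM had 15 to 48. The part of these levels in the results below was not tested.

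Upstream sequences are shown for the members with the clearest contrasts outside HMOX1: BLVRB, which was higher in both surviving groups, and CPOX and FECH, which were lower in RSL3-R cells. That of ALAS1, which was called in neither group, is shown beside these sequences. Each is 120 bases on the strand of the gene (RefSeq, GRCh38.p14) and ends before the first base of the gene in the deposited annotation and before the RefSeq start. The 4 stretches lie at chr19:40465841-40465960 (minus strand), chr3:98593724-98593843 (minus strand), chr18:57586773-57586892 (minus strand) and chr3:52197963-52198082 (plus strand).
BLVRB: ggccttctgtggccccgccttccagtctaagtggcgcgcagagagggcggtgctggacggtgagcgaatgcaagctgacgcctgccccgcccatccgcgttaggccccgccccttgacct
CPOX: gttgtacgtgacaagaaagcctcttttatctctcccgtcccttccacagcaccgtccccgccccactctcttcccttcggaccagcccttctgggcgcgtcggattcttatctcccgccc
FECH: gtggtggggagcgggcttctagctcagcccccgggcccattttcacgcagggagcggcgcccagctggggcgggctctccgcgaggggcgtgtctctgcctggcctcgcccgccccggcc
ALAS1: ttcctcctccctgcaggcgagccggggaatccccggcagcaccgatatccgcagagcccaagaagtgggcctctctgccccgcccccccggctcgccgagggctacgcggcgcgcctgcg

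The RefSeq table held 10 promoter entries for 9 of the members, HMOX2 with 2 starts, and none was matched for HMOX1. The 250 bases before each start were searched on both strands for the core of the antioxidant response element, TGACNNNGC, through which NRF2 acts, for the AP-1 or MARE core, TGACTCA or TGAGTCA, and for the ATF4 element TGATGNAA. The first and the second motif overlap in part. A single member entry held a match, the antioxidant core in FECH, 38 to 30 bases before the RefSeq start. The 30 bases around it lie at chr18:57586722-57586751, inside the gene in the deposited annotation, and are written on the minus strand with the match in capitals.
FECH: gccgggagggcGCGAGGTCAgggggctggg
Over all 35116 promoter entries, 10.9% held the antioxidant core, 4.2% the AP-1 or MARE core and 3.14% the ATF4 element. No match says only that these letters are not in this window.

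In erastin-R cells, heme breakdown genes were higher: HMOX1 rose 2.90-fold, BLVRB 1.96-fold and BLVRA 1.30-fold against vehicle, while HMOX2 was not called. The heme importer SLC48A1 rose 1.45-fold, and the synthesis enzymes UROD and CPOX fell slightly. In all, 4 of the 10 genes were higher and 2 were lower (edgeR's quasi-likelihood test, Benjamini-Hochberg adjusted p under 0.05). Among the 16188 genes tested, 27.1% were higher and 26.8% were lower by the same rule. With 10 genes, neither the 4 higher nor the 2 lower lay far from that background, and nothing is read from these counts. With a minimum change of 2-fold, HMOX1 alone of the 10 remained, beside 13.4% of all genes in either direction. The median log2 fold change of the 10 genes was -0.04, beside -0.00 over all genes.

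In RSL3-R cells HMOX1 and BLVRB rose 1.41-fold each. CPOX fell 1.79-fold, FECH 1.51-fold, FLVCR1 1.30-fold and UROD 1.21-fold. Thus 2 of the 10 were higher and 4 were lower, beside 23.8% and 24.9% of all genes, and nothing is read from these counts either. No member passed the 2-fold minimum, which 10.1% of all genes did. The median log2 fold change of the 10 genes was -0.10, beside 0.01 over all genes.

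**Figure D1:**
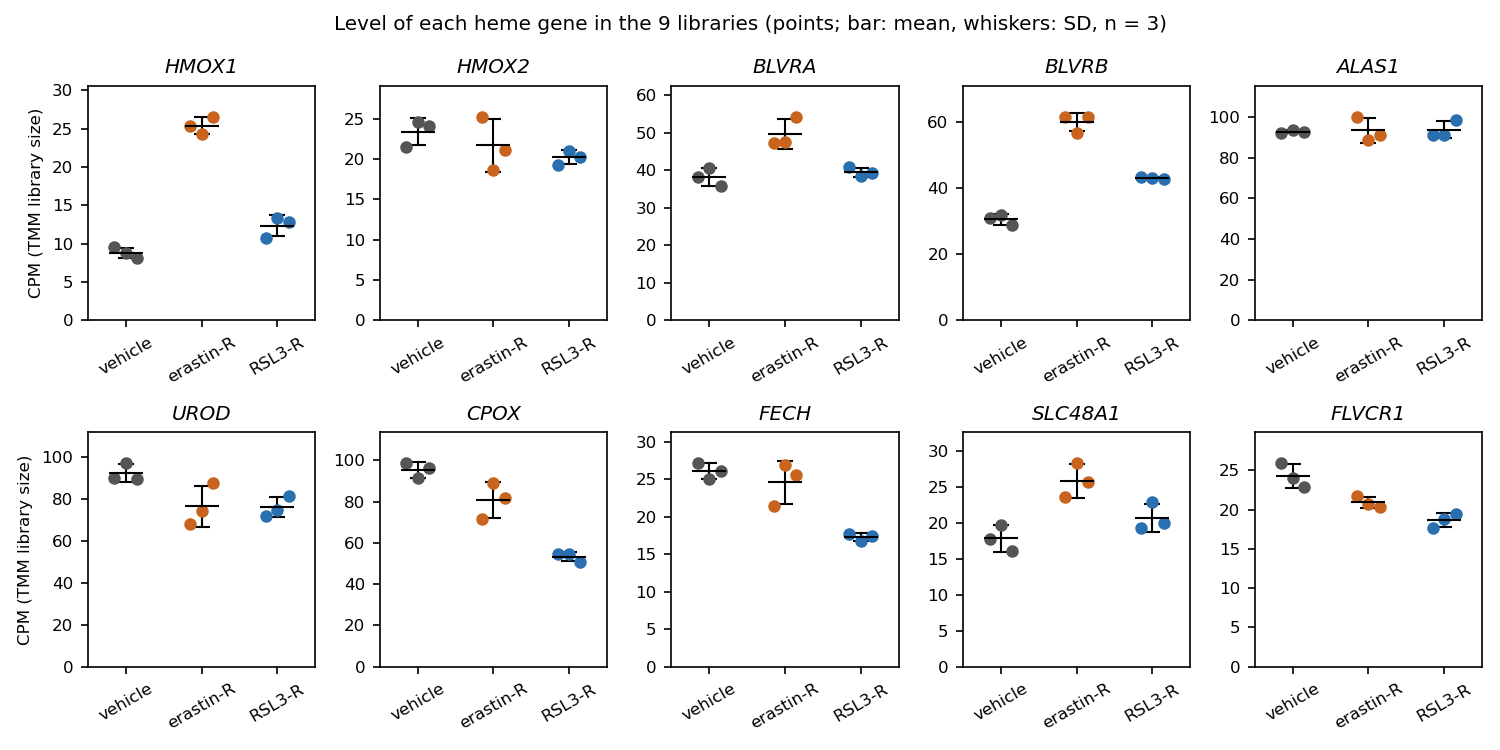
Level of each of the 10 genes in the 9 libraries, in CPM on a linear axis that starts at 0 in each panel; points are libraries, the bar is the mean and the whiskers the SD of 3 libraries. HMOX1 lay between 24.3 and 26.6 CPM in erastin-R cells, above every vehicle library (8.08 to 9.48 CPM), and CPOX lay between 50.8 and 54.7 CPM in RSL3-R cells, below every vehicle library (91.3 to 98.7 CPM).

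HMOX1 (ENSG00000100292, chr22:35380361-35394214, plus strand, GRCh38), the inducible heme oxygenase, measured 9.48, 8.71 and 8.08 CPM in the vehicle libraries. It measured 25.3, 24.3 and 26.6 CPM in the erastin-R libraries and 10.8, 13.3 and 12.9 CPM in the RSL3-R libraries. The 3 groups did not overlap, with erastin-R highest and vehicle lowest. The means were 8.76 ± 0.700, 25.4 ± 1.13 and 12.3 ± 1.35 CPM (SD, n = 3). The log2 fold change was 1.53 (SE 0.11, edgeR adjusted p = 9.36e-08) in erastin-R cells and 0.49 (SE 0.12, adjusted p = 0.00314) in RSL3-R cells. In size the first exceeded 94.97% and the second 63.9% of all genes tested in the same comparison. Without erastin-R replicate 1 the erastin-R value was 1.54.

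HMOX2 (ENSG00000103415, chr16:4474690-4510347, plus strand), the constitutive heme oxygenase, measured 21.5, 24.6 and 24.1 CPM in vehicle cells. The erastin-R libraries gave 25.3, 18.6 and 21.1 CPM, and the RSL3-R libraries 19.3, 21.0 and 20.3 CPM. The erastin-R libraries spread on both sides of the vehicle range, and the RSL3-R libraries lay just below it. The log2 fold change was -0.11 (95% interval -0.35 to 0.13, adjusted p = 0.433) and -0.21 (95% interval -0.45 to 0.03, adjusted p = 0.137). Without erastin-R replicate 1, which held the highest value, HMOX2 was called lower in erastin-R cells, at -0.23 (adjusted p = 0.0476). It was then also called lower in RSL3-R cells, where the value stayed at -0.21 (adjusted p = 0.0445). That contrast holds no erastin-R library, but the removal changes the spread shared by the model. Of its exon length, 6.01% overlapped the opposite strand of NMRAL1, a gene with 353 to 510 counts. Whether the counting used strand was not given.

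Compared per length, HMOX1 was below HMOX2 in vehicle cells and above it in erastin-R cells. The size of the ratio rests on annotated exon lengths, 2405 bases over 4 transcripts for HMOX1 and 3793 over 18 for HMOX2. By CPM, the RSL3-R means were 12.3 for HMOX1 and 20.2 for HMOX2, and the erastin-R means 25.4 and 21.7. The RPKM ratio of HMOX1 to HMOX2 was 0.697, 0.559 and 0.530 in the vehicle libraries. It was 1.58, 2.06 and 1.99 in the erastin-R libraries and 0.881, 0.9985 and 0.9999 in the RSL3-R libraries. The groups did not overlap. HMOX1 made up 37.2% ± 3.41 of the summed RPKM of both genes in vehicle, 65.0% ± 3.28 for erastin-R and 48.9% ± 1.82 for RSL3-R cells (SD, n = 3). The exact permutation test of the log2 ratio (two-sided, 3 against 3 libraries) gave p = 0.1 in each of the 3 comparisons, the smallest it allows. The summed level rose from 9.80 ± 0.265 to 16.3 ± 1.12 RPKM in erastin-R cells and measured 10.4 ± 0.786 RPKM in RSL3-R cells, whose range of 9.56 to 11.1 overlapped that of vehicle, 9.60 to 10.1.

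**Figure D2:**
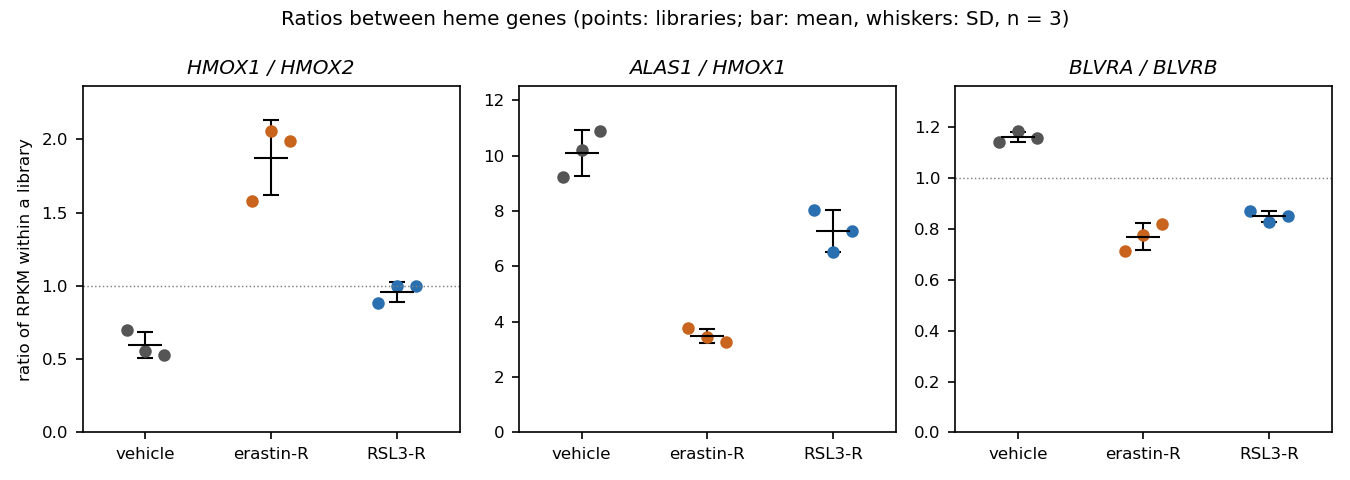
Ratio of RPKM values of gene pairs within each library. Points are libraries, the bar and whiskers are the mean and SD of 3 libraries, and dotted lines mark equal RPKM. HMOX1 exceeded HMOX2 in the 3 erastin-R libraries, by 1.58 to 2.06 times, and BLVRA exceeded BLVRB in the vehicle libraries only.

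BLVRB (ENSG00000090013, chr19:40447765-40465840, minus strand), the flavin and biliverdin reductase whose upstream sequence is shown above, measured 31.1, 31.9 and 28.7 CPM in vehicle cells. It reached 61.5, 56.7 and 61.6 CPM in erastin-R cells and 43.5, 43.1 and 42.7 CPM in RSL3-R cells. The RSL3-R libraries fell between the other groups with no overlap. Log2 fold changes were 0.97 (SE 0.07, adjusted p = 9.97e-08) and 0.49 (SE 0.07, adjusted p = 6.79e-05). BLVRA (ENSG00000106605, chr7:43758680-43807342, plus strand), which reduces the main product of heme oxygenase, measured 38.3, 40.7 and 35.9 CPM in vehicle, 47.2, 47.5 and 54.3 CPM in erastin-R and 40.8, 38.4 and 39.2 CPM in RSL3-R cells. Its erastin-R libraries lay above vehicle and its RSL3-R libraries overlapped vehicle. The log2 fold change was 0.38 (SE 0.08, adjusted p = 0.00122) in erastin-R cells and 0.04 (95% interval -0.13 to 0.22, adjusted p = 0.680) in RSL3-R cells. The RPKM ratio of BLVRA to BLVRB was 1.16 ± 0.0210 in vehicle, 0.769 ± 0.0535 for erastin-R and 0.850 ± 0.0221 for RSL3-R cells.

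ALAS1 (ENSG00000023330, chr3:52198086-52214327, plus strand), the rate-limiting enzyme of synthesis outside the erythroid lineage, had the highest mean RPKM of the 10 in each group. That rank rests on the annotated exon lengths, 2536 bases for ALAS1, 2908 for UROD and 3232 for CPOX. By CPM the vehicle means of these genes were 92.8, 92.3 and 95.5. ALAS1 measured 92.05, 93.8 and 92.7 CPM in vehicle, 100.2, 88.5 and 91.4 CPM in erastin-R and 91.4, 91.2 and 98.7 CPM in RSL3-R cells. All groups overlapped. The log2 fold change was 0.01 in both comparisons, with the same 95% interval of -0.13 to 0.15 (adjusted p = 0.923 and 0.874). In size, these changes exceeded those of only 1.24% and 2.17% of all genes tested. The RPKM ratio of ALAS1 to HMOX1 was 10.1 ± 0.841 in vehicle, 3.49 ± 0.249 for erastin-R and 7.28 ± 0.773 for RSL3-R cells, without overlap.

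UROD (ENSG00000126088, chr1:45012147-45015575, plus strand), which decarboxylates uroporphyrinogen in the cytosol, measured 90.0, 97.3 and 89.7 CPM in vehicle cells. It measured 68.3, 74.2 and 87.5 CPM in erastin-R and 71.9, 75.1 and 81.4 CPM in RSL3-R cells. Both surviving groups lay below vehicle, the nearest erastin-R library by a small margin. Log2 fold changes against vehicle were -0.27 (SE 0.09, adjusted p = 0.0181) and -0.28 (SE 0.09, adjusted p = 0.0168). The erastin-R call was lost without vehicle replicate 2 (adjusted p = 0.0740) or erastin-R replicate 2 (adjusted p = 0.0558). The RSL3-R call was lost without vehicle replicate 2 (adjusted p = 0.0704), RSL3-R replicate 1 (adjusted p = 0.133) or RSL3-R replicate 2 (adjusted p = 0.0547).

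CPOX (ENSG00000080819, chr3:98579446-98593723, minus strand), which converts coproporphyrinogen to protoporphyrinogen, measured 98.7, 91.3 and 96.3 CPM in vehicle cells. Erastin-R libraries gave 71.8, 89.3 and 81.9 CPM and RSL3-R libraries 54.7, 54.4 and 50.8 CPM. The 3 groups did not overlap, and RSL3-R was lowest. Log2 fold changes were -0.24 (SE 0.08, adjusted p = 0.0196) with erastin-R and -0.84 (SE 0.08, adjusted p = 1.29e-06) in RSL3-R cells, a change larger in size than that of 84.2% of all genes tested. The erastin-R call was lost without vehicle replicate 1 (-0.22, adjusted p = 0.0711) and was -0.16 (adjusted p = 0.0253) without erastin-R replicate 1.

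FECH (ENSG00000066926, chr18:57548283-57586772, minus strand), the ferrochelatase that ends the pathway, measured 27.2, 25.0 and 26.1 CPM in vehicle cells. It measured 21.4, 26.9 and 25.5 CPM in erastin-R cells and 17.7, 16.7 and 17.4 CPM in RSL3-R cells. Erastin-R overlapped vehicle, and every RSL3-R library lay below both. On the log2 scale erastin-R differed from vehicle by -0.08 (95% interval -0.29 to 0.12, adjusted p = 0.480) and RSL3-R by -0.59 (SE 0.10, adjusted p = 2.07e-04). The RPKM ratio of ALAS1 to FECH, the first and the last enzyme, was 6.28 ± 0.320 in vehicle, 6.79 ± 1.29 for erastin-R and 9.57 ± 0.456 for RSL3-R cells. The ratio of UROD to CPOX was 1.08 ± 0.0928, 1.06 ± 0.132 and 1.59 ± 0.167. Both ratios overlapped between vehicle and erastin-R cells, and both were higher in every RSL3-R library than in any other.

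SLC48A1 (ENSG00000211584, chr12:47753916-47782753, plus strand), which moves heme from endosomes and lysosomes into the cytosol, measured 17.8, 19.8 and 16.04 CPM in vehicle cells. It measured 23.5, 28.3 and 25.7 CPM in erastin-R and 19.3, 22.9 and 19.9 CPM in RSL3-R cells. All 3 erastin-R libraries lay above the vehicle range, and the RSL3-R libraries overlapped it, with 2 of 3 above it. Against vehicle the log2 values were 0.53 (SE 0.11, adjusted p = 9.58e-04) for erastin-R and 0.21 for RSL3-R (95% interval -0.03 to 0.45, adjusted p = 0.129). Its exons overlapped the opposite strands of RAPGEF3 and HDAC7 over 1.69% and 0.65% of their length.

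FLVCR1 (ENSG00000162769, chr1:212858255-212899363, plus strand), described as a heme exporter and also a carrier of choline, measured 25.9, 24.0 and 22.8 CPM in vehicle cells. It measured 21.7, 20.7 and 20.3 CPM in erastin-R and 17.7, 18.8 and 19.4 CPM in RSL3-R cells. The groups stepped down without overlap. RSL3-R differed from vehicle by -0.38 (SE 0.09, adjusted p = 0.00295) on the log2 scale. The erastin-R value was -0.21 (SE 0.09) and missed the threshold at an adjusted p of 0.0542, which it passed without vehicle replicate 3 (-0.26, adjusted p = 0.0433) or erastin-R replicate 1 (-0.24, adjusted p = 0.0337). The RPKM ratio of FLVCR1 to SLC48A1 was 1.04 ± 0.101 in vehicle, 0.622 ± 0.0740 for erastin-R and 0.691 ± 0.0579 for RSL3-R cells, and the surviving groups overlapped each other but not vehicle.

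Ordered by RPKM in vehicle cells, ALAS1 stood at 36.6 ± 0.339, UROD at 31.7 ± 1.48, CPOX at 29.5 ± 1.16, BLVRA at 21.0 ± 1.32 and BLVRB at 18.1 ± 0.960. HMOX2 followed at 6.16 ± 0.440, FECH at 5.83 ± 0.243, FLVCR1 at 3.77 ± 0.243, HMOX1 at 3.64 ± 0.291 and SLC48A1 at 3.63 ± 0.379. The neighbours HMOX2 and FECH overlapped, as did FLVCR1, HMOX1 and SLC48A1 in turn, and the libraries of the other neighbours did not. In erastin-R cells BLVRB stood next to ALAS1 (35.5 ± 1.66 and 36.8 ± 2.41 RPKM, overlapping), and HMOX1 stood at 10.6 ± 0.471 RPKM, above every HMOX2 library. In RSL3-R cells CPOX stood at 16.5 ± 0.665 RPKM, below every BLVRA library, and HMOX1, at 5.12 ± 0.563 RPKM, overlapped HMOX2 and SLC48A1.

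Compared directly, 6 of the 10 genes were lower in RSL3-R than in erastin-R cells and 0 were higher, beside 26.9% and 22.3% of all genes. By the unadjusted p the counts were the same. DESeq2 called 6 lower and 0 higher, and limma called 5 lower and 0 higher. These are fits of the same counts, and the members were chosen with earlier results known. Nothing is read from these counts. HMOX1 passed the 2-fold minimum, as did 10.3% of all genes in either direction. Its log2 difference was -1.04 (SE 0.11, adjusted p = 4.04e-06). BLVRB differed by -0.48 (SE 0.07, adjusted p = 7.91e-05) and BLVRA by -0.33 (SE 0.08, adjusted p = 0.00340). Of the synthesis enzymes, CPOX differed by -0.60 (SE 0.08, adjusted p = 3.49e-05) and FECH by -0.51 (SE 0.10, adjusted p = 7.55e-04). SLC48A1 differed by -0.32 (SE 0.11, adjusted p = 0.0247), a call lost without erastin-R replicate 2 (adjusted p = 0.102), RSL3-R replicate 1 (adjusted p = 0.146) or RSL3-R replicate 3 (adjusted p = 0.129). For HMOX2 the difference was -0.10 (95% interval -0.34 to 0.14), for ALAS1 0.01 (-0.13 to 0.15), for UROD -0.01 (-0.20 to 0.18) and for FLVCR1 -0.17 (-0.36 to 0.03). The median over the 10 was -0.33, beside -0.02 over all genes.

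**Figure D3:**
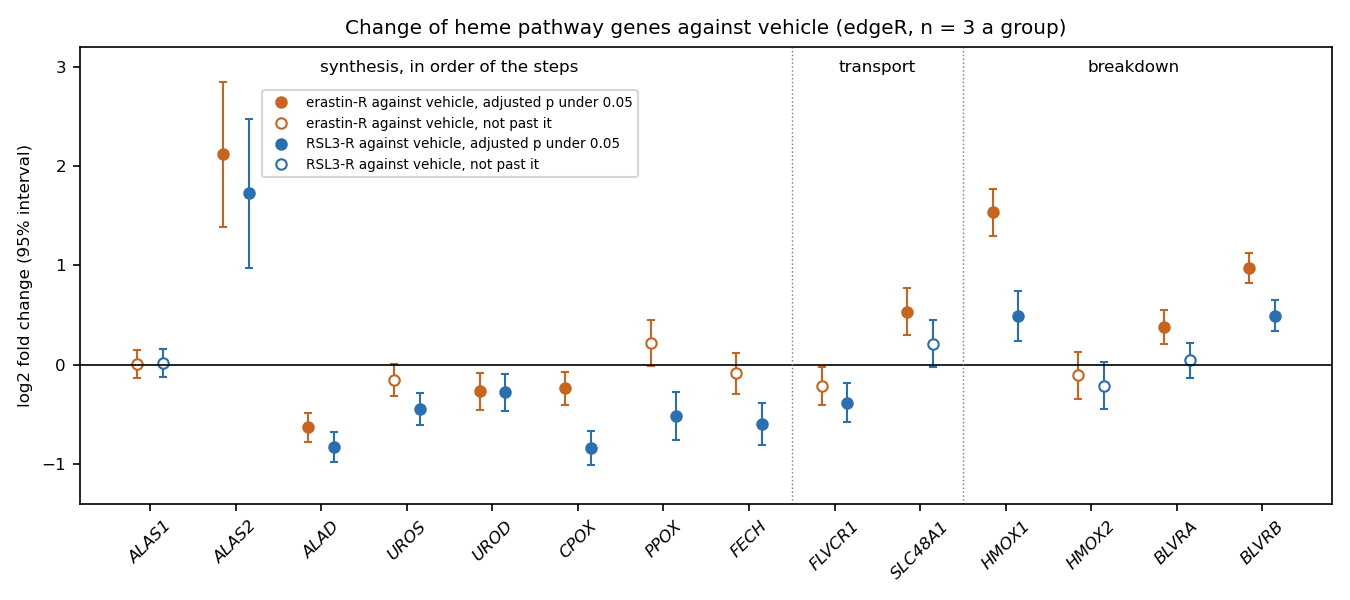
Log2 fold change against vehicle of heme synthesis enzymes in the order of their steps, the 2 transporters and the breakdown genes, with 95% intervals before adjustment; filled points passed an adjusted p of 0.05. In RSL3-R cells ALAD, UROS, UROD, CPOX, PPOX and FECH lay below 0, while ALAS1 was at 0.01 and ALAS2 at 1.73. The median of all genes there was 0.01. In erastin-R cells HMOX1 reached 1.53 and BLVRB 0.97.

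Of 4 other synthesis enzymes, ALAS2 among them, 3 were lower in RSL3-R cells, beside 24.9% of all genes: ALAD by -0.83, UROS by -0.44 and PPOX by -0.52 (adjusted p = 3.80e-07, 2.38e-04 and 0.00163). UROD, CPOX and FECH were lower in RSL3-R cells as well, and ALAS1 was not called. In erastin-R cells ALAD was lower (-0.63, adjusted p = 4.04e-06), while UROS at -0.15 and PPOX at 0.22 were not called. UROS was called lower at -0.21 (adjusted p = 0.0404) without erastin-R replicate 3, and PPOX higher at 0.28 (adjusted p = 0.0199) without erastin-R replicate 1. Of the exon length of PPOX, 24.3% overlapped the opposite strand of B4GALT3, a gene with 625 to 1236 counts.

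ALAS2, the erythroid form of the first enzyme, was higher in both groups from a very low level. It had 9, 8 and 20 counts in vehicle, 74, 39 and 49 in erastin-R and 41, 43 and 38 in RSL3-R libraries. The groups did not overlap vehicle, and the log2 fold change was 2.12 (SE 0.34, adjusted p = 1.29e-04) and 1.73 (SE 0.35, adjusted p = 0.00102). Per length it stayed far below ALAS1, at 0.354 ± 0.195, 1.54 ± 0.469 and 1.18 ± 0.118 RPKM in vehicle, erastin-R and RSL3-R cells. The hemoglobin genes HBB and HBA1 were at 0 counts in the same libraries.

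Among the 11 genes of mitochondrial support of synthesis, 5 were higher and 3 lower in erastin-R cells, and 2 were higher and 1 lower in RSL3-R cells (median 0.17 and -0.06). All genes gave 27.1% and 26.8% in the first comparison and 23.8% and 24.9% in the second. Over the alternatives the 4 counts ran from 3 to 5, 2 to 3, 2 to 2 and 1 to 3. ABCB6, a porphyrin transporter, rose by 1.11 (adjusted p = 0.00251) in erastin-R cells and was at -0.46 (adjusted p = 0.216) in RSL3-R cells, at 18 to 87 counts. Of its exon length, 54.7% is shared with AC068946.2 on the same strand, a gene with 2 to 16 counts. SLC25A37, a mitochondrial iron importer, rose by 0.39 and 1.001 (adjusted p = 7.82e-05 and 1.15e-08). ABCB10, a mitochondrial transporter of heme-producing cells, fell by 0.58 and 1.03 (adjusted p = 3.88e-04 and 3.24e-06).

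The list of other heme binding and transport genes held 11, of which 10 were tested, CD163 having at most 6 counts. In erastin-R cells 4 were higher and 3 lower, and in RSL3-R cells 3 were higher and 4 lower (median 0.09 and 0.01), beside 27.1% and 26.8%, and 23.8% and 24.9%, of all genes. Over the alternatives 4 were higher and 3 to 4 lower with erastin-R, and 3 to 4 higher and 3 to 4 lower with RSL3-R. FLVCR2, the paralogue of FLVCR1, had 211 to 216 counts in vehicle, 68 to 86 in erastin-R and 47 to 60 in RSL3-R libraries. It fell by 1.49 and 2.02 on the log2 scale (adjusted p = 1.31e-06 and 1.25e-07), and 6.76% of its exon length overlapped TTLL5 on the same strand. ABCG2, an exporter that also handles porphyrins, fell by 1.80 in RSL3-R cells (SE 0.43, adjusted p = 0.00341) with 6, 4 and 26 counts against 40, 38 and 48 in vehicle, while erastin-R libraries held 30 to 38 counts (-0.29, adjusted p = 0.539).

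Of the 12 heme sensors and HMOX1 regulators, 6 were higher and 0 lower in erastin-R cells, and 7 were higher and 2 lower in RSL3-R cells (median 0.44 and 0.36). Of all genes, 27.1% and 26.8% were so called in erastin-R and 23.8% and 24.9% with RSL3-R. Over the alternative fits 6 to 7 were higher and 0 to 1 lower with erastin-R, and 6 to 8 higher and 1 to 2 lower with RSL3-R. BACH1, the heme-binding repressor of HMOX1, measured 49.3, 49.0 and 54.8 CPM in vehicle, 90.5, 92.7 and 86.7 CPM in erastin-R and 116.0, 104.0 and 116.7 CPM in RSL3-R cells. Its transcript was thus higher in both groups, by 0.82 and 1.14 (adjusted p = 5.04e-07 and 2.20e-08), and higher in RSL3-R than in erastin-R cells by 0.32 (adjusted p = 0.00172). NFE2L2, which encodes NRF2, rose by 0.53 (adjusted p = 0.00247) in RSL3-R cells and was at 0.17 (adjusted p = 0.239) in erastin-R cells. Without erastin-R replicate 2 the latter was called higher, at 0.30 (adjusted p = 0.0386). MAFF, a small Maf partner of both factors, rose by 1.52 and 0.89 (adjusted p = 2.44e-08 and 3.85e-06). The heme-binding nuclear receptors NR1D1 and NR1D2 rose by 2.08 and 1.07 in erastin-R cells (adjusted p = 2.39e-08 and 1.21e-07) and by 1.48 and 0.89 in RSL3-R cells (adjusted p = 6.70e-07 and 7.93e-07). Of the exon length of NR1D1, 9.49% overlapped the opposite strand of THRA, a gene with 279 to 475 counts. For NFE2L2, 17.6% overlapped AC019080.1 on the same strand, a gene with 69 to 169 counts.

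Of the 8 other NRF2 targets, 8 were higher in erastin-R cells, beside 27.1% of all genes, with a median of 1.26, and 8 were higher under each alternative fit. The list was chosen with earlier results of these data known, so its counts are a description only. TXNRD1 rose by 1.48, GCLC by 1.49, GCLM by 1.35 and SRXN1 by 1.32 (adjusted p = 2.99e-10, 5.60e-09, 8.16e-09 and 3.05e-04). Of the exon length of SRXN1, 85% is shared with AL121758.1 on the same strand, a gene with 0 to 1 counts. In RSL3-R cells 3 were higher and 1 was lower, beside 23.8% and 24.9% of all genes, with a median of 0.07, and over the alternatives 3 to 4 were higher and 1 to 2 lower. There TXNRD1 rose by 0.31 (adjusted p = 2.31e-04), GCLM fell by 0.40 (adjusted p = 6.96e-04), and GCLC at 0.16 and SRXN1 at -0.46 were not called. GCLC was called higher at 0.15 (adjusted p = 0.0348) and SRXN1 lower at -0.47 (adjusted p = 0.0190) without erastin-R replicate 1, whose removal changes the spread shared by the model. Compared directly, 7 of the 8 were lower in RSL3-R than in erastin-R cells, beside 26.9% of all genes, and 6 to 7 over the alternatives.

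**Figure D4:**
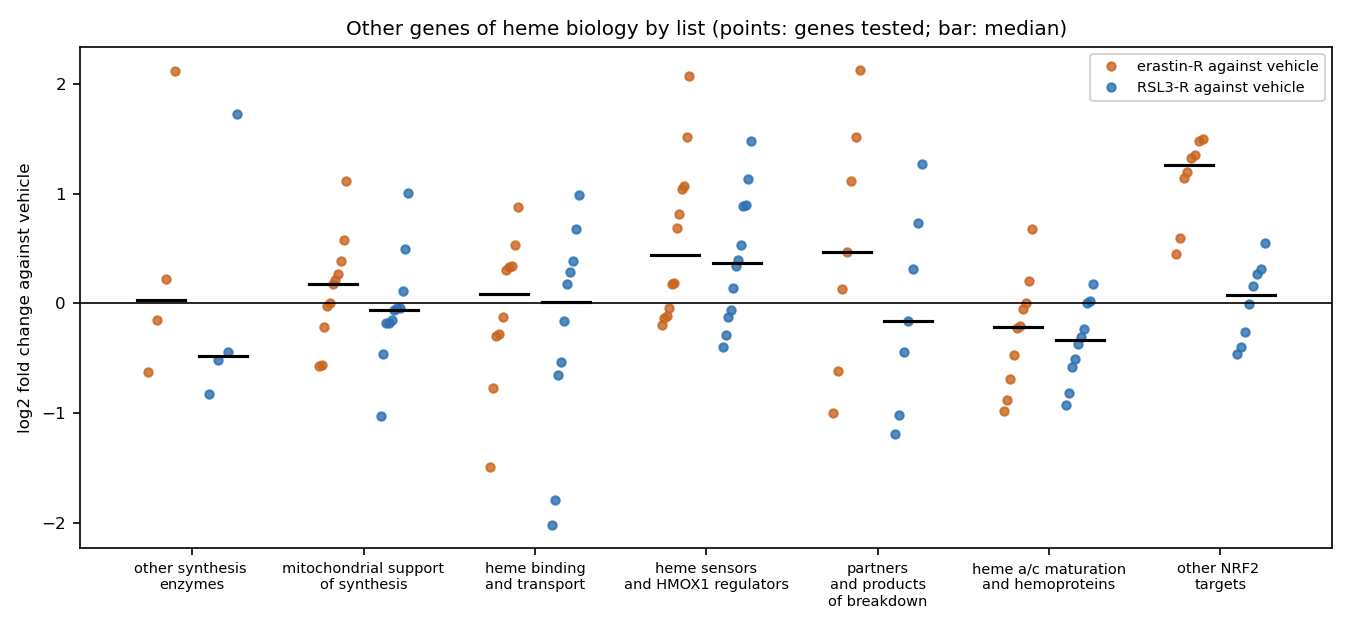
Log2 fold change against vehicle of the other genes of heme biology by list; each point is a gene tested, and the bar is the median of the list. The 8 other NRF2 targets all lay above 0 in erastin-R cells (median 1.26) and on both sides of 0 in RSL3-R cells (median 0.07). The lists were chosen with earlier results of these data known.

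Partners and products of breakdown were measured for 7 of 8 genes, UGT1A1 being at 0 counts in every library, which allows up to 3 counts in each. Of the exon length of UGT1A1, 49.9% is shared with UGT1A10 and 33.1% with UGT1A8 on the same strand, both also at 0 counts. Reads in shared exons may not be assigned to a single gene, so the 0 of UGT1A1 is uncertain. In erastin-R cells 4 were higher and 2 lower, and in RSL3-R cells 3 were higher and 3 lower (median 0.47 and -0.16), beside 27.1% and 26.8%, and 23.8% and 24.9%, of all genes. Over the alternatives 3 to 5 were higher and 1 to 2 lower with erastin-R, and 2 to 3 higher and 2 to 4 lower with RSL3-R. The ferritin subunits, which store the iron that heme oxygenase releases, rose: FTH1 by 2.13 and 0.73 (adjusted p = 7.59e-09 and 1.15e-04) and FTL by 1.52 and 0.32 (adjusted p = 2.58e-10 and 1.64e-04). Both have many near-identical pseudogenes, so that their unique counts are uncertain. TFRC, the transferrin receptor, fell by 0.61 and 1.19 (adjusted p = 4.16e-07 and 7.31e-10). ABCC2, an exporter of bilirubin conjugates, rose by 1.12 and 1.27 (adjusted p = 2.66e-04 and 1.001e-04) at 39 to 126 counts.

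Of the 10 genes for heme a and heme c maturation and hemoproteins, 1 was higher and 6 were lower in erastin-R cells, and 0 were higher and 5 lower in RSL3-R cells (median -0.22 and -0.34). All genes gave 27.1% and 26.8%, and 23.8% and 24.9%. No gene of that list passed the 2-fold minimum. Over the alternative fits 1 to 2 were higher and 4 to 6 lower with erastin-R, and 0 to 1 were higher and 4 to 7 lower with RSL3-R.

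The genes most like HMOX1 were sought among 9462 genes of at least 10 CPM by the root mean square difference of centred log2 CPM over the 9 libraries. They were MYC at 0.101, GOLGA3 at 0.103, CUL7 at 0.104, FTL at 0.111 and SEC24D at 0.122, where the median gene was at 0.663. Against vehicle, MYC rose by 1.56 on the log2 scale with erastin-R and by 0.64 with RSL3-R. The genes most like ALAS1 were AKAP13, RNF115, NUP88, COL12A1 and PDE8A at 0.0421 to 0.0439, where the median gene was at 0.237. Nothing on shared control can be read from these distances.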

How the data were processed

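Poly(dT)-selected RNA of 9 libraries was sequenced on an Illumina platform. The deposited counts are reads per gene without normalization; the submitters' processing notes name HISAT2 2.0.5 and featureCounts 1.5.0-p3, and the study used uniquely mapped exonic reads. The authors also deposited FPKM values, used here for 1 alternative filter (mean FPKM of at least 1). Gene identifiers matched GENCODE release 29 (Ensembl release 94, GRCh38). In R 4.3.3, edgeR 4.0.16 (TMM, filterByExpr, quasi-likelihood test, 1 model of the 9 libraries, no covariate) compared the 3 groups, with Benjamini-Hochberg adjustment over 16188 genes. A gene was called at an adjusted p under 0.05, and the study's 2-fold minimum was an alternative. RPKM used the deposited gene lengths. Other alternatives were no filter, RLE factors, scaling by total count, DESeq2 1.42.0, limma 3.58.1 after quantile normalization, only the 2 groups compared, the replicate number as a block, and leaving out single libraries. The common dispersion gave a coefficient of variation of 8.56%. Counting intervals and floors (3 counts, 0.174 to 0.195 CPM) cover counting error only. The steps were tested on simulated counts. Figures were drawn with matplotlib 3.10.9.

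The members and lists were chosen with earlier results of these data known. Named outside the members are at most 4 genes per list, those past 2-fold in either comparison with vehicle with the largest change, besides ALAD, UROS, PPOX, ALAS2, BACH1 and NFE2L2, and the 5 genes most like HMOX1 and ALAS1. Some items are not reported here. Markers and genes that overlap a named gene were named where needed.

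Libraries with the same replicate number did not deviate together: after subtracting group means, the correlation over genes was -0.0904 to 0.0518 over the 9 same-number pairs and -0.0880 to 0.123 for the others.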

Additional observations from a re-analysis of the deposited data

Results flagged for a closer look

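For 6 of the 10 genes the contrast with vehicle differed between the 2 surviving groups. The direct test of RSL3-R against erastin-R libraries was used (edgeR, adjusted p under 0.05). In RSL3-R cells 6 were lower and 0 higher, beside 26.9% and 22.3% of all genes tested, and nothing is read from this count. The log2 difference was -1.04 for HMOX1, -0.33 for BLVRA, -0.48 for BLVRB, -0.60 for CPOX, -0.51 for FECH and -0.32 for SLC48A1. HMOX1 and BLVRB lay above vehicle in both groups, with erastin-R higher, while CPOX and FECH were lowest in the RSL3-R libraries.

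The direct test also called 19 of the other named genes, most of which were named for a large change against vehicle, so nothing is read from that count; 26.9% of all genes tested were lower and 22.3% higher. Higher in RSL3-R cells were SLC25A37 by 0.61, BACH1 by 0.32 and NFE2L2 by 0.35 on the log2 scale. Of the other synthesis enzymes, ALAD differed by -0.20, UROS by -0.29 and PPOX by -0.73, while ALAS2 at -0.39 was not called. Of the members, ALAS1 and UROD were not called either. Among transporters, ABCB6 differed by -1.58, ABCB10 by -0.45, FLVCR2 by -0.53 and ABCG2 by -1.51. MAFF differed by -0.63 and NR1D1 by -0.59. The iron genes FTH1, FTL and TFRC differed by -1.396, -1.20 and -0.58. The NRF2 targets GCLC, GCLM, TXNRD1 and SRXN1 differed by -1.34, -1.75, -1.17 and -1.79. No cause was tested.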

How the results depend on the processing

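Over 510 values of the 10 genes under alternatives, 473 kept their direction and side of the threshold, 12 lost and 6 gained the call, and 19 changed sign, each from a value that had not been called. Under the 2-fold minimum, 1 member was higher and 0 lower in erastin-R cells, 0 higher and 0 lower in RSL3-R cells, and 1 lower in the direct comparison. Leaving out 1 library gave 1 to 4 members lower in erastin-R cells: 1 without vehicle replicate 1, vehicle replicate 2 or erastin-R replicate 2, and 4 without erastin-R replicate 1. For ALAS1 in erastin-R cells the value turned to -1.57e-05 without a filter, -0.00495 with a mean FPKM of at least 1 and -0.0175 with limma, and was -0.0470 to 0.0452 over the libraries left out. FECH in erastin-R cells ranged from -0.15 to 0.00499 and BLVRA in RSL3-R cells from -0.00482 to 0.0865 over the libraries left out. In the direct comparison UROD turned to 0.0306 with a mean FPKM of at least 1, 0.00570 with RLE factors, 0.0909 with limma, 0.00563 with DESeq2 and 0.0275 with only the 2 groups, and ranged from -0.0891 to 0.0921 over the libraries left out. ALAS1 there turned to -0.00645 with total counts and ranged from -0.0338 to 0.0605, and HMOX2 from -0.20 to 0.0208. Limma with quantile normalization lost UROD in RSL3-R cells (adjusted p = 0.0569) and SLC48A1 in the direct comparison (0.0585) and called SLC48A1 higher in RSL3-R cells (0.0459); fitting only the 2 groups lost SLC48A1 in the direct comparison (0.0544), and a mean FPKM of at least 1 called FLVCR1 lower in erastin-R cells (0.0380). The causes were not tested.

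Libraries of the same replicate number showed no shared deviation, which does not settle whether their cultures were paired. With the replicate block the same counts were called: 4 higher and 2 lower in erastin-R cells, 2 higher and 4 lower in RSL3-R cells, and 0 higher and 6 lower in the direct comparison. For the other named genes, in checks added after the data were seen, 731 values kept their call and 10 gained one; over the libraries left out NFE2L2 in erastin-R cells ranged from -9.02e-05 to 0.30. At 4 to 87 counts, values of ALAS2, ABCB6 and ABCG2 rest on few reads.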
